A study of Mus musculus with 20 samples.

Results

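The 9 genes described here encode transcription factors of the identity of Purkinje cells (PCs), the output neurons of the cerebellar cortex: Rora, Esrrb, Esrrg, Lhx1, Lhx5, Foxp2, Foxp4, Ebf1 and Ebf3. They were chosen by name, from a list of PC transcription factors, out of the 21897 protein-coding genes of the count table, and each symbol matched 1 Ensembl gene. All 9 had enough reads to be tested in every comparison. Their RNA was read in whole cerebellum, with 1 cerebellum of 1 mouse in each of 20 libraries, all on the C57BL/6J background. The SCA7 mice are knock-in heterozygotes (SCA7 140Q/5Q) that carry an Atxn7 allele with an expanded CAG repeat of 140 glutamine codons beside a normal mouse allele of 5, a model of spinocerebellar ataxia type 7. Of the 14 late libraries, labelled 25w, 5 are of AAV-shA4-treated SCA7 mice, 5 of AAV-shSCR-treated SCA7 mice and 4 of untreated WT mice. Of the 6 early libraries, labelled 9w, 3 are of AAV-shA4-treated WT mice and 3 of untreated WT mice. The day from which these weeks are counted is not in the labels. The paper counts the early time from the injection, and for the late time it gives a number of weeks after injection that differs from the label. The AAV, of the PHP.eB serotype and given to young mice into the retro-orbital sinus, expresses eGFP from a CMV promoter and an shRNA from an H1 promoter, neither of which is particular to PCs. The shRNA shA4 is directed at CAG repeats, shSCR is a control shRNA of scrambled sequence, made from another CAG-directed shRNA of the study (shA2R), and the untreated mice had saline in place of AAV, per the methods. Every late SCA7 mouse therefore carried AAV and every late WT mouse did not, so genotype and AAV cannot be told apart in the comparisons with WT. Likewise, in the early WT mice shA4 cannot be told apart from the AAV and eGFP that come with it.

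RORα, the product of Rora, is an orphan nuclear receptor without which PCs fail to mature, as in the staggerer mouse, and it activates PC genes such as Pcp2, Pcp4 and Itpr1. Lhx1 and Lhx5 are LIM-homeodomain factors that act together in PC differentiation, Foxp2 and Foxp4 are forkhead repressors, and Ebf1 and Ebf3 are helix-loop-helix factors of the Olf/EBF family. Esrrb and Esrrg encode estrogen-related receptors, orphan nuclear receptors tied to mitochondrial metabolism. Several of these genes are also used outside PCs: Rora in interneurons of the molecular layer, Foxp2 in neurons of the cerebellar nuclei, thalamus and striatum, and Ebf1 in the mural cells of vessels. In RNA of a whole tissue, fewer cells of a type and less RNA per cell cannot be told apart.

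Because shA4 is directed at CAG repeats, the longest uninterrupted CAG runs of the 9 genes are shown, as annotated transcripts hold them (GENCODE release M21, build GRCm38, 5′ to 3′ on the gene's strand, the run in capitals). In Foxp2 the run is coding and in frame, and lies on chromosome 6 (chr6:15377981-15377998, plus strand). In Foxp4 it lies in the 3′UTR (chr17:47868366-47868380, minus strand), and so it does in Esrrb (chr12:86520710-86520724, plus strand). In Rora it is coding in 2 transcripts (chr9:69364237-69364248, plus strand).
Foxp2, 6 CAG: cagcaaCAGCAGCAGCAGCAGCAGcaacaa
Foxp4, 5 CAG: ccaccacCAGCAGCAGCAGCAGggctctc
Esrrb, 5 CAG: tttgaagCAGCAGCAGCAGCAGttaaatg
Rora, 4 CAG: caccggatgCAGCAGCAGCAGcgagaccac
The other genes hold shorter runs, of 3 CAG in Ebf3 and 2 in Lhx1, Lhx5, Ebf1 and Esrrg. The Foxp2 run sits inside an unbroken stretch of 40 glutamine codons, of which 29 are CAG and 11 CAA in the form held by 1 exon. This stretch covers 120 bases (chr6:15377945-15378064), with the same 6 CAG in capitals.
Foxp2 stretch: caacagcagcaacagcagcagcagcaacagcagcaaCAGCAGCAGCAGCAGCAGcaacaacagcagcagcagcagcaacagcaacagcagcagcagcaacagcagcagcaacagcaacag
Runs of at least 6 CAG were found in 209 of the 21897 protein-coding genes (0.954%), of at least 5 in 1.61% and of at least 4 in 3.19%. The annotated Atxn7 transcript, from the normal mouse allele, holds 5.

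Between 31465586 and 54570503 reads per library were counted on genes. Levels are given as CPM, which corrects a count for the depth of its library, after TMM normalization over the 20 libraries, and tests are edgeR's quasi-likelihood tests with Benjamini-Hochberg adjustment over all genes tested. Here "called" means an adjusted p under 0.05 together with a change beyond 1.3-fold, 0.379 on the log2 scale. As the label cerebellum has it, PC and granule cell markers were abundant, with sums of at least 9755 and 6157 CPM in every library. Atxn7, the gene with the repeat, was read at 44.4 to 51.7 CPM in AAV-shA4-treated SCA7 mice, 45.6 to 53.4 in AAV-shSCR-treated SCA7 mice and 45.6 to 50.2 in late WT mice, ranges that overlap. These counts are RNA of both alleles together. The lowering by shA4 that the paper reports was of the mutant protein, on western blots, which these counts do not measure. At the late time 2 libraries stood apart, AAV-shA4-treated SCA7 mouse 1 and WT mouse 1. The summed level of 8 genes of neurons outside the cerebellar cortex (Nrgn, Tcf7l2, Camkv, Slc17a6, Sst, Meis2, Kcnip2 and Enc1, a list chosen after its values were seen) was 399.8 and 433 CPM there and 43.8 to 92.6 CPM in the other late libraries. At 9w this sum also varied, over 85.0 to 155.9 CPM with AAV-shA4 and 58.6 to 188 CPM in untreated mice. Its part in the comparisons that use early mice was not tested. Fold changes that rest on the 2 late libraries that stood apart are given with and without them. Levels per kilobase and correlations are given only with them.

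Per kilobase of the median annotated transcript, Rora was the most abundant of the 9 in late WT cerebellum, at 373 ± 10.1 CPM per kb (SD, n = 4). Lhx1 followed at 83.2 ± 4.18 and Foxp4 at 57.8 ± 2.66 CPM per kb. Ebf1 (25.6 ± 0.725) and Esrrg (22.5 ± 0.395) came next, and the ranges of these upper genes did not overlap between neighbours. Foxp2, Esrrb, Lhx5 and Ebf3 formed the low end, at 9.46 ± 3.59, 8.03 ± 0.391, 6.75 ± 0.686 and 5.74 ± 0.440 CPM per kb. The Foxp2 mean includes WT mouse 1, which stood apart, at 14.85 CPM per kb. That is 23.4 CPM, against 11.7 to 12.3 CPM in the other WT mice, so the place of Foxp2 among these genes is uncertain. Among these 4, the range of Foxp2 overlapped those of Esrrb and Lhx5, and the range of Lhx5 overlapped that of Ebf3. The lowest Foxp2 value was 7.45 and the highest Lhx5 value 7.65 CPM per kb, just under the lowest Esrrb value of 7.77. The order depends on the transcript length used: per kilobase of all exons joined, Rora stayed first at 31.0 CPM per kb, followed by Foxp4 at 23.2 and Lhx1 at 20.1, and Foxp2 was last at 0.912.

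**Figure D1:**
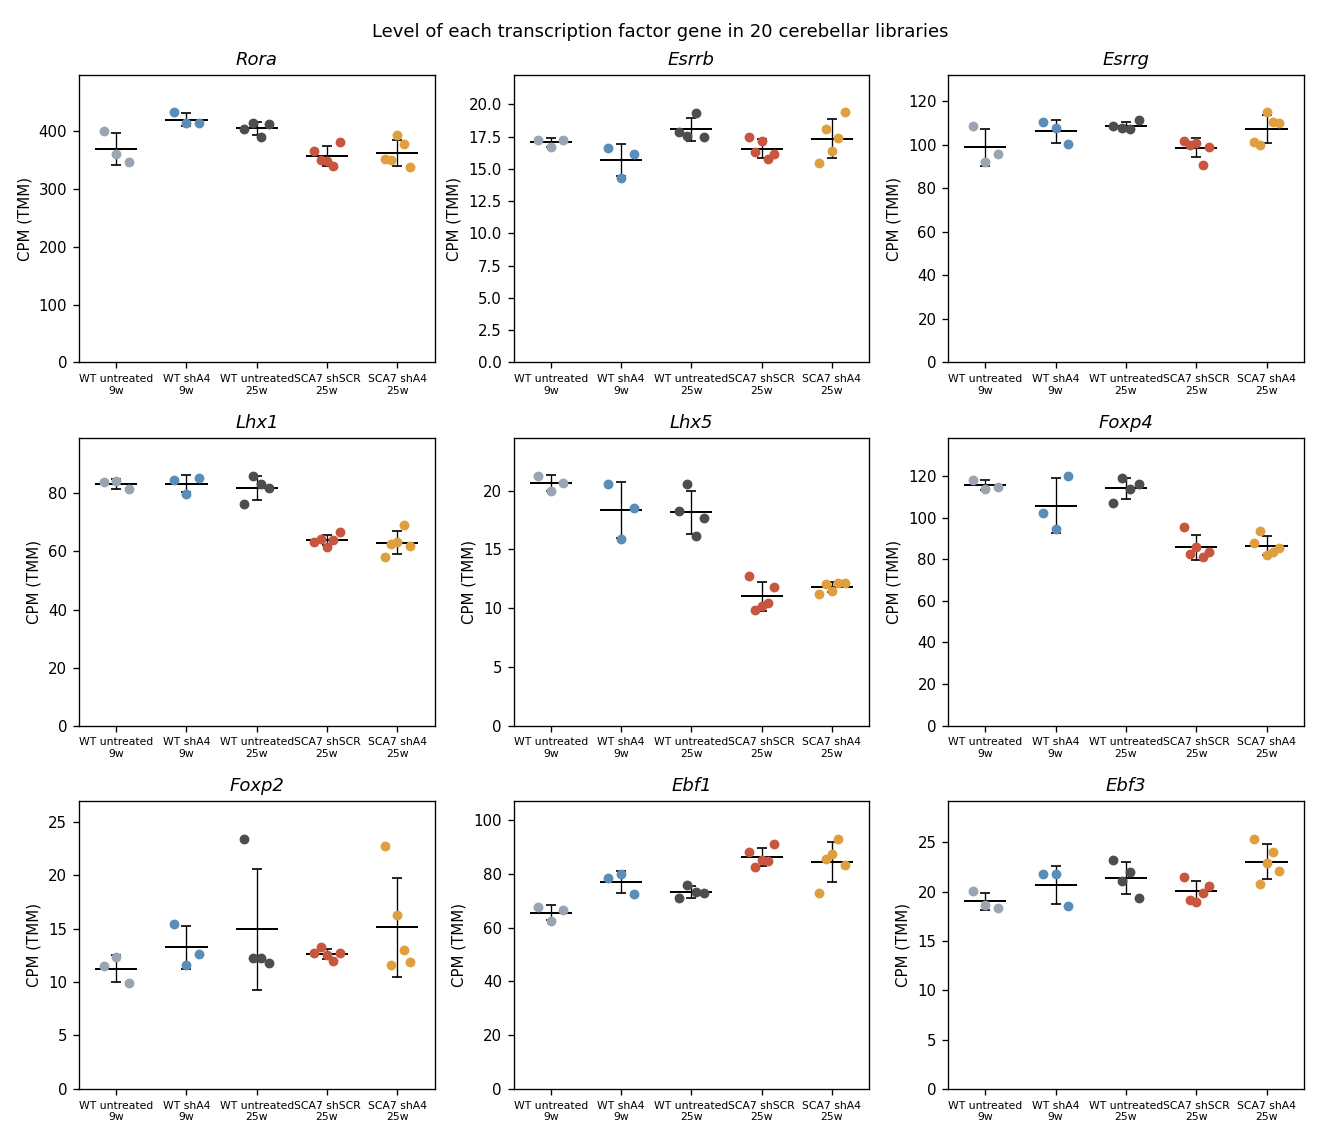
Level of each of the 9 genes in CPM (vertical axis, from 0) in the 5 conditions (horizontal axis), 1 point per mouse, with the mean and SD in black. Lhx1, Lhx5 and Foxp4 lie lower in both SCA7 groups than in every WT mouse at 25w, Ebf1 lies higher in AAV-shSCR-treated SCA7 mice, and Foxp2 has 1 high mouse in each of 2 late groups.

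At the late time the LIM-homeodomain genes and Foxp4 were lower in SCA7 cerebellum, Rora was slightly lower, and Ebf1 was higher. In AAV-shSCR-treated SCA7 mice against WT, 5 of the 9 genes fell and 1 rose by adjusted p, against 15.5% of the 14862 genes tested that passed in either direction. Lhx5 and Foxp4 were called, against 4.02% of all genes. In 5 of the 9 every SCA7 mouse lay below every WT mouse, against 9.33% of all genes. In AAV-shA4-treated SCA7 mice against the same 4 WT mice, 4 genes fell and 1 rose by adjusted p (13.6% of all genes), Lhx5 and Foxp4 were again called (3.45% of all genes), and 3 lay below WT without overlap (7.91% of all genes). Across the 9 genes the median log2 change was −0.18 (AAV-shSCR) and −0.06 (AAV-shA4), beside medians over all genes of 0.0017 and 0.0061. The 2 comparisons share their WT mice. P-values set the difference between groups against the spread between these mice.

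Lhx5 fell the most of the 9. It was read at 18.3, 20.6, 16.1 and 17.6 CPM in WT mice, at 12.7, 9.83, 10.2, 10.4 and 11.8 CPM in AAV-shSCR-treated SCA7 mice, and at 11.2, 12.02, 11.5, 12.1 and 12.2 CPM in AAV-shA4-treated SCA7 mice. Each of the 10 SCA7 mice lay below each WT mouse. With AAV-shSCR it fell by 39.4%, a log2 fold change of −0.72 ± 0.0807 (SE, adjusted p = 8.94e-06). With AAV-shA4 it fell by 35.0% (−0.62 ± 0.0804, adjusted p = 4.61e-05), and the AAV-shA4 group differed from the AAV-shSCR group by 0.10 (95% interval −0.06 to 0.27, adjusted p = 0.759). An antisense gene, Gm27199, shares 69 exon bases with Lhx5 and had 53 to 124 counts per library, and whether the counting used strand is not given in the sources used here, so that reads in these bases cannot be assigned.

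Lhx1, its close partner in PC differentiation, was read at 76.3, 86.2, 83.1 and 81.7 CPM in WT mice. It was at 63.2, 64.4, 61.6, 63.8 and 66.6 CPM in AAV-shSCR-treated and at 58.1, 62.7, 63.2, 69.2 and 61.8 CPM in AAV-shA4-treated SCA7 mice. The groups did not overlap. The log2 fold changes against WT were −0.355 ± 0.0447 (SE, adjusted p = 3.2e-05) and −0.377 ± 0.0447 (adjusted p = 1.85e-05), both just inside the 1.3-fold limit of 0.379. Without the 2 libraries that stood apart they were −0.39 and −0.38 and both passed the limit, so that 3 of the 9 genes were called in each comparison, against 3.81% of all genes with AAV-shSCR and 3.58% with AAV-shA4. AAV-shA4 and AAV-shSCR differed by −0.02 (95% interval −0.11 to 0.07, adjusted p = 0.914).

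Foxp4 was read at 107, 119, 114 and 116 CPM in WT mice. In AAV-shSCR-treated SCA7 mice it was at 95.7, 82.5, 86.0, 80.9 and 83.6 CPM, and in AAV-shA4-treated SCA7 mice at 88.0, 93.4, 82.1, 83.5 and 85.6 CPM. Again each SCA7 mouse lay below each WT mouse. The log2 fold changes were −0.41 ± 0.0487 (SE, adjusted p = 1.7e-05) and −0.40 ± 0.0486 (adjusted p = 2.65e-05), so that Foxp4 fell by 24.8% and by 24.1%. Without WT mouse 2, the WT mouse with the most Foxp4, the change with AAV-shA4 was −0.375, inside the limit. In that fit 1 of the 9 genes was called in that comparison, against 3.02% of all genes. Foxp4 differed between AAV-shA4 and AAV-shSCR by 0.01 (95% interval −0.09 to 0.11, adjusted p = 0.96).

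Foxp2, which holds the longest coding CAG run of the 9, did not pass the test in any comparison. It was read at 23.4, 12.2, 12.3 and 11.7 CPM in late WT mice, at 12.7, 13.3, 12.5, 11.9 and 12.7 CPM in AAV-shSCR-treated SCA7 mice, and at 22.7, 11.6, 16.3, 13.01 and 11.9 CPM in AAV-shA4-treated SCA7 mice. The highest values, 23.4 and 22.7 CPM, come from the 2 libraries that stood apart, and the third highest, 16.3, from the AAV-shA4 library with the next highest sum of the 8 genes (92.6 CPM). The log2 fold change was −0.25 ± 0.207 (SE, adjusted p = 0.469) with AAV-shSCR and 0.01 ± 0.206 (adjusted p = 0.977) with AAV-shA4, both against WT. Without both libraries these values were 0.06 (adjusted p = 0.732) and 0.13 (adjusted p = 0.456), the first with the opposite sign. AAV-shA4 and AAV-shSCR differed by 0.26 (95% interval −0.15 to 0.68, adjusted p = 0.752), and by 0.06 without both libraries. Whether the neurons that express these 8 genes had a part in the Foxp2 values was not tested.

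**Figure D2:**
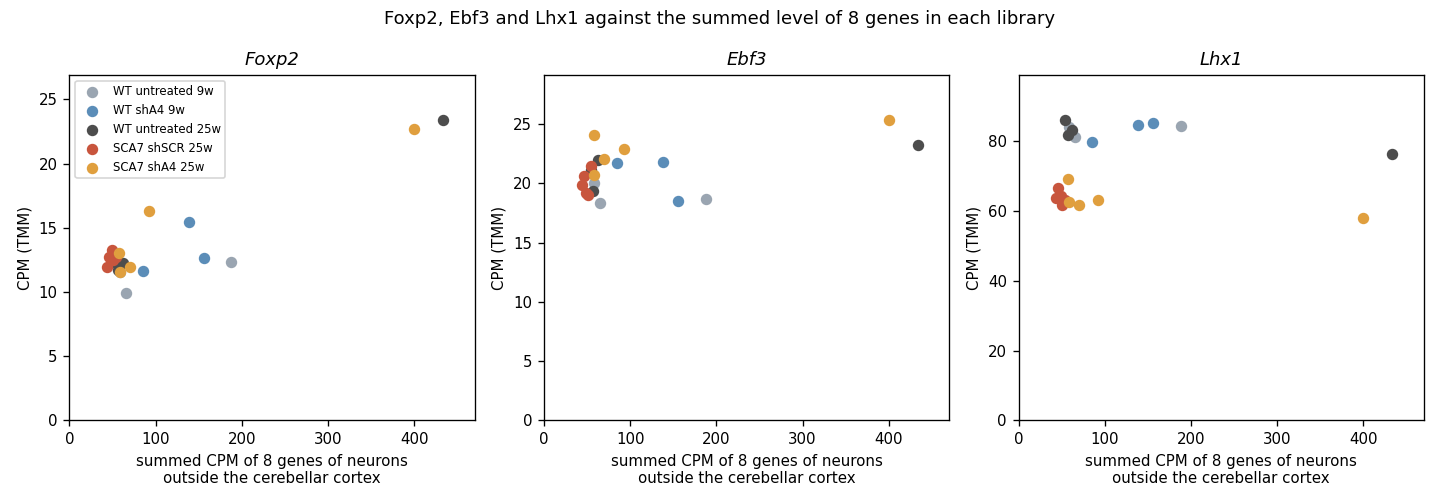
Level in CPM of Foxp2, Ebf3 and Lhx1 (vertical axes, from 0) against the summed CPM of 8 genes of neurons outside the cerebellar cortex (horizontal axis), 1 point per library, coloured by condition. The 2 libraries at 399.8 and 433 CPM on the horizontal axis hold the highest Foxp2 values, 22.7 and 23.4 CPM, while their Lhx1 values, 58.1 and 76.3 CPM, are the lowest of their groups.

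Among the nuclear receptors, Rora was read at 403, 414, 389.9 and 412 CPM in late WT mice. It was at 366, 349, 348, 340.4 and 381 CPM in AAV-shSCR-treated and at 352, 350.4, 393, 377 and 338 CPM in AAV-shA4-treated SCA7 mice. All AAV-shSCR mice lay below the WT mice, whereas AAV-shA4 mouse 3, at 393 CPM, reached into the WT range. Rora fell by 11.8% with AAV-shSCR (log2 −0.18 ± 0.0435, SE, adjusted p = 0.00915) and dropped by 10.5% with AAV-shA4 (−0.16 ± 0.0435, adjusted p = 0.0208), both short of 1.3-fold. The second was lost when WT mouse 2 (adjusted p = 0.0637), WT mouse 4 (0.0603), AAV-shA4 mouse 5 (0.0502) or both libraries that stood apart (0.0607) were left out. AAV-shA4 and AAV-shSCR differed by 0.02 (95% interval −0.07 to 0.11, adjusted p = 0.92).

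Esrrg was read at 109, 107, 107 and 111 CPM in late WT mice, at 101.9, 100.1, 101, 90.9 and 99.1 CPM in AAV-shSCR-treated SCA7 mice, and at 101, 99.7, 115, 110.4 and 109.9 CPM in AAV-shA4-treated SCA7 mice. The AAV-shSCR mice lay below WT, and the AAV-shA4 mice spread over both ranges. With AAV-shSCR the log2 fold change was −0.14 ± 0.0424 (SE, adjusted p = 0.0336), a small change that missed the threshold in 6 of the 9 fits that left out 1 mouse (adjusted p up to 0.0912, without WT mouse 4): those without any 1 of the 4 WT mice, AAV-shSCR mouse 4 or AAV-shSCR mouse 5. With AAV-shA4 it was −0.02 ± 0.0423 (adjusted p = 0.814). The direct difference between AAV-shA4 and AAV-shSCR was 0.12 (95% interval 0.03 to 0.21), with an unadjusted p of 0.00876 from edgeR and an adjusted p of 0.514, so a difference between the treatments was not shown. Esrrb, its relative, ranged over 17.5 to 19.4 CPM in WT, 15.7 to 17.5 with AAV-shSCR and 15.4 to 19.4 with AAV-shA4, with log2 fold changes of −0.12 (adjusted p = 0.213) and −0.06 (adjusted p = 0.607).

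Ebf1 was the only one of the 9 higher than WT by adjusted p. It was read at 70.9, 76.0, 73.2 and 72.9 CPM in WT mice, at 88.2, 82.4, 85.0, 84.8 and 90.9 CPM in AAV-shSCR-treated SCA7 mice, and at 72.8, 85.5, 87.3, 93.1 and 83.3 CPM in AAV-shA4-treated SCA7 mice. All AAV-shSCR mice lay above WT, as in 7.48% of all genes, and so did the AAV-shA4 mice except mouse 1, one of the libraries that stood apart. The log2 fold changes were 0.24 ± 0.0533 (SE, adjusted p = 0.00566) and 0.20 ± 0.0533 (adjusted p = 0.0171), rises of 17.9% and 15.1%. The 10 markers of endothelial and mural cells summed to 393 to 446 CPM in WT, 357 to 434 with AAV-shSCR and 377 to 410.1 with AAV-shA4. Of these markers 3 were lower and 1, Pecam1, was higher by adjusted p in each comparison. With AAV-shSCR, Cldn5 (log2 fold change −0.401) and Kcnj8 (−0.399) were called lower, and Pecam1 (0.224) was not called. Their part in the Ebf1 values was not tested.

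Ebf3 did not pass the test against WT, with log2 fold changes of −0.10 ± 0.0645 (SE, adjusted p = 0.344) with AAV-shSCR and 0.10 ± 0.0642 (adjusted p = 0.332) with AAV-shA4. It was read at 21.5, 19.2, 19.0, 19.9 and 20.6 CPM in AAV-shSCR-treated and at 25.4, 20.7, 22.9, 24.1 and 22.05 CPM in AAV-shA4-treated SCA7 mice. The ranges overlapped in 1 AAV-shA4 mouse. The difference of 0.20 (95% interval 0.07 to 0.33) had the lowest unadjusted edgeR p of the 9 in this comparison, 0.00452, but an adjusted p of 0.483, and was 0.16 without the 2 libraries that stood apart.

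**Figure D3:**
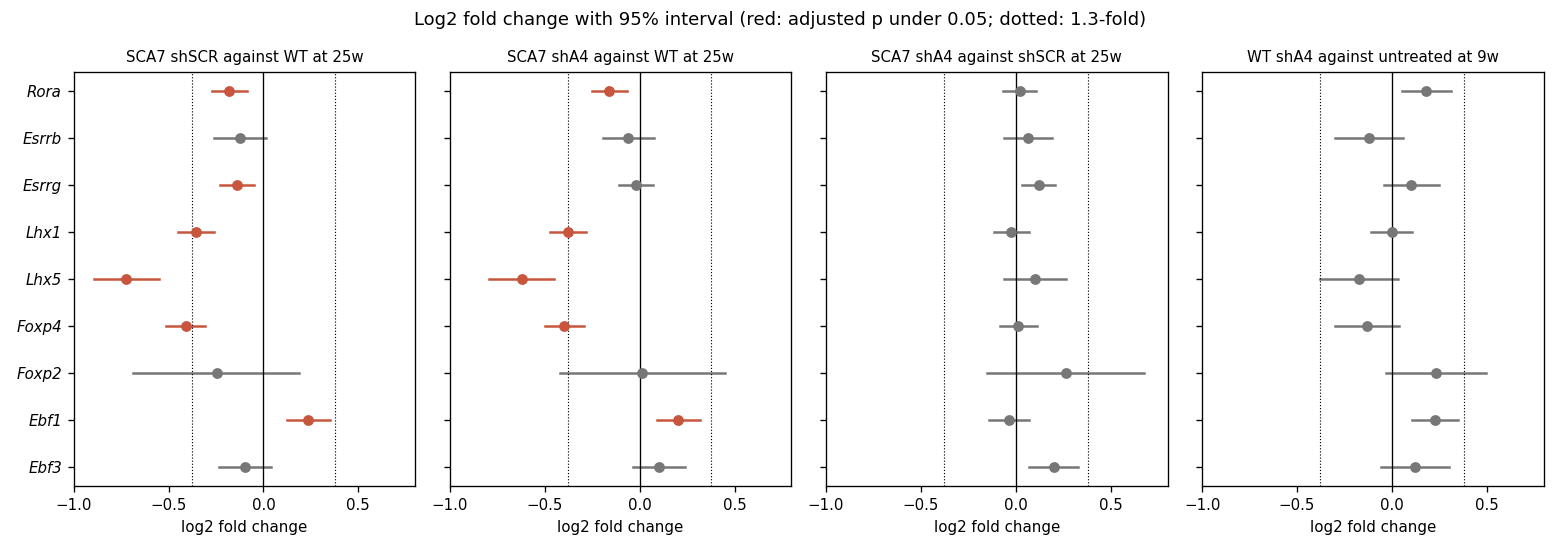
Log2 fold change (horizontal axis) of the 9 genes (vertical axis) with its 95% interval in 4 comparisons, red where the adjusted p was under 0.05, with dotted lines at 1.3-fold. The falls of Lhx5, Lhx1 and Foxp4 and the rise of Ebf1 appear in both comparisons with WT, and no gene passed in AAV-shA4 against AAV-shSCR or in the early comparison.

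The direct comparison of the treatments in SCA7 mice asks whether shA4 changed these genes. None of the 9 passed by edgeR's adjusted p (0% of all genes), and 2 had an unadjusted p under 0.05, Ebf3 and Esrrg. Over all genes edgeR called none either, 0%, with 1223 at an unadjusted p under 0.05, and DESeq2 called 4. For Rora, Foxp4, Lhx1 and Ebf1 the 95% intervals of the difference stayed within 0.14 on the log2 scale in either direction.

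The early comparison asks whether AAV-shA4 moved these genes in WT cerebellum, against untreated mice. Of all genes tested by edgeR, 0.0543% were called and 0.0679% passed by adjusted p. None of the 9 did either, with 2 at an unadjusted p under 0.05, beside 1639 of the 14733 genes tested. Ebf1 was read at 78.6, 79.8 and 72.4 CPM with AAV-shA4 and at 67.7, 62.6 and 66.4 CPM in untreated mice. Rora was read at 432, 413 and 414 CPM and 400.5, 360.5 and 347 CPM in the same groups. The groups did not overlap for either gene, nor for Esrrb, which lay lower with AAV-shA4, against 16.0% of all genes without overlap in either direction. With 3 mice against 3 the smallest exact two-sided permutation p is 0.1, which these genes had. The log2 fold change of Ebf1 was 0.23 ± 0.0549 (SE, adjusted p = 0.204) and that of Rora 0.18 ± 0.0585 (adjusted p = 0.31), and with DESeq2 Ebf1 reached an adjusted p of 0.0432. The depth of the early groups did not overlap either, at 36245752 to 39208298 reads with AAV-shA4 and 47455917 to 49212593 reads without, and its part in these values was not tested. Foxp2 differed by 0.23 (95% interval −0.03 to 0.50), Lhx5 by −0.17 (−0.38 to 0.03), Foxp4 by −0.13 (−0.30 to 0.04) and Lhx1 by −0.0019 (−0.11 to 0.11).

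Between untreated WT mice at 25w and 9w, 5.14% of all genes were called and none of the 9. Ebf1 alone passed by adjusted p, against 23.0% of all genes, at 70.9 to 76.0 CPM late against 62.6 to 67.7 CPM early (log2 fold change 0.16 ± 0.0384, SE, adjusted p = 0.0154). This was lost without early WT mouse 2 (adjusted p = 0.0603). Lhx1 and Foxp4 differed by −0.02 each (95% intervals −0.12 to 0.07 and −0.11 to 0.07). Foxp2 differed by 0.42 (adjusted p = 0.215), and by a log2 fold change of 0.105 without late WT mouse 1. Rora (adjusted p = 0.0176) and Esrrg (0.00879) passed without early WT mouse 1, Lhx5 (0.0328) without late WT mouse 2 and Ebf3 (0.0442) without late WT mouse 4. Time, cohort and any library batch cannot be told apart here.

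The PC markers were lower in both SCA7 groups. Against WT, all 20 of 20 PC markers were lower by adjusted p with AAV-shSCR, and 15 were called, with a median log2 fold change of −0.48. Over all genes, 15.5% passed by adjusted p in either direction and 4.02% were called. With AAV-shA4 the values were 20, 14 and −0.46, beside 13.6% and 3.45% of all genes. The summed PC markers ranged over 13900 to 15660 CPM in WT, 9755 to 10850 with AAV-shSCR and 9861 to 11360 with AAV-shA4, without overlap with WT. Sums of oligodendrocyte markers also lay below WT without overlap. They were 5615 to 6643 CPM in WT, 4130 to 4968 with AAV-shSCR and 4587 to 5210 with AAV-shA4. So did sums of interneuron markers, at 627 to 672, 540.4 to 579 and 563 to 602 CPM. Marker sums of Bergmann glia and astrocytes and of cerebellar nuclei did so with AAV-shSCR only. Those of granule cells, microglia, vessels and choroid plexus overlapped WT in both. Lhx5 fell by more than the median PC marker, Foxp4 and Lhx1 by slightly less, and Rora by less still. These differences between genes were not tested.

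All 5 genes listed as bound by RORα were lower by adjusted p in both comparisons, and 4 of them, all but Shh, are also among the PC markers. With AAV-shSCR the log2 fold changes were −0.63 for Pcp4 and −0.45 for Pcp2, small PC proteins, −0.42 for Itpr1, the calcium release channel, −0.39 for Shh, the mitogen that PCs secrete, and −0.32 for Slc1a6, a glutamate transporter of PC spines. Slc1a6 was not called. With AAV-shA4 they ranged from −0.58 to −0.31. Rora itself had −0.18 and −0.16 on the same scale.

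Ebf2, a paralog of Ebf1 and Ebf3, was lower in both SCA7 groups than in WT and was called in both comparisons. Its log2 fold change was −0.43 with AAV-shSCR (adjusted p = 0.00207) and −0.44 with AAV-shA4 (adjusted p = 0.00171). Ebf2 thus fell where Ebf1 rose. Of 19 cofactors of these factors, 1 was lower and 1 higher by adjusted p with AAV-shSCR, 1 was lower and 2 were higher with AAV-shA4, and none was called.

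Among the transcription factors of other cell types, 1 gene was called in each comparison with WT. Of 13 factors of granule cells, 2 were lower and 4 higher by adjusted p with AAV-shSCR, none called, with a median of 0.07. Of 8 tested factors of interneurons and nuclear neurons, 2 were lower and 1 higher, with a median of −0.11. Eomes, a factor of unipolar brush cells, was called at −1.17. Of 10 glial factors, 2 were lower and none called, with a median of −0.14. With AAV-shA4, 4 granule cell factors were lower and 4 higher, 1 factor of interneurons and nuclear neurons was lower and 1 higher, and 5 of 10 glial factors were lower. The medians with AAV-shA4 were 0.06, −0.15 and −0.17 in that order, beside −0.06 for the 9 genes. None of the factors in these lists passed by adjusted p in AAV-shA4 against AAV-shSCR.

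**Figure D4:**
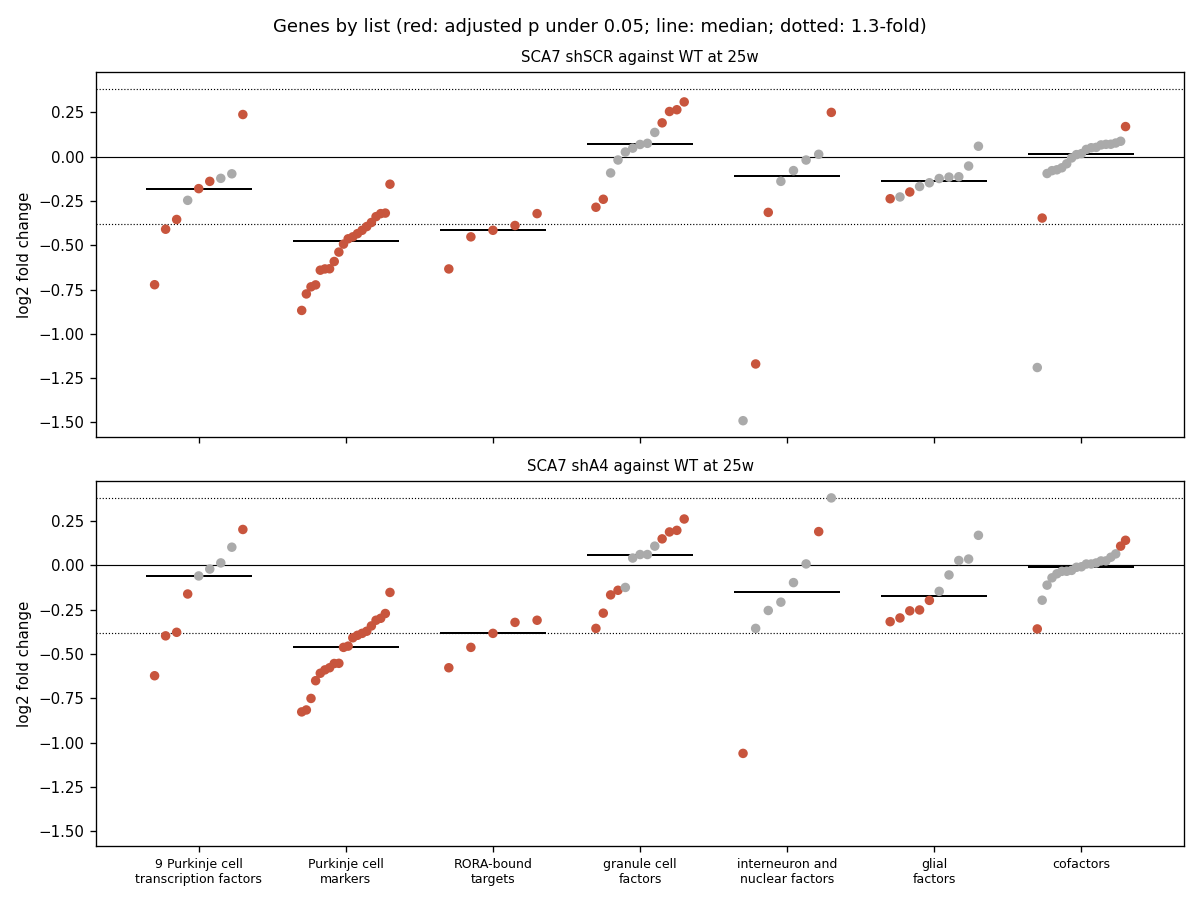
Log2 fold change against WT at 25w (vertical axis) of each gene in 7 lists (horizontal axis), for AAV-shSCR-treated SCA7 mice above and AAV-shA4-treated SCA7 mice below, red where the adjusted p was under 0.05, with the median as a line and 1.3-fold dotted. All 20 PC markers and all 5 genes listed as bound by RORα lie below 0 in both, while the 9 PC transcription factors spread from −0.72 (Lhx5) to 0.24 (Ebf1) above and from −0.62 to 0.20 below.

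Over the 14 late libraries the log2 levels of Foxp4 and Lhx5 had a Pearson correlation of 0.93, Lhx1 and Lhx5 of 0.90, and Foxp4 and Lhx1 of 0.86, while Foxp4 and Ebf1 had −0.72. These libraries share the difference between SCA7 and WT, so the values describe that difference as well as the spread between mice. Foxp2 and Ebf3 had 0.67, and both were high in the 2 libraries that stood apart. The genes most like each of the 9 over the same libraries were Hlf, Corin and Gad1 for Rora (0.94 to 0.93), Lrp8, Pde9a and Gfod1 for Lhx1 (0.97), Dlgap4, Lrrfip1 and Lrrn2 for Lhx5 (0.97 to 0.98), and Trappc5, Shank1 and Chst8 for Foxp4 (0.97 to 0.98). For Foxp2 they were Drd2, a dopamine receptor of striatal neurons, Ankrd63 and Cbln2 (0.97). Foxp2 was highest in the 2 libraries that stood apart, and its correlations were not computed without them. Ebf1 was closest to Crat, Rnf122 and Cep120 (0.94 to 0.92), Ebf3 to Cab39, Fkbp3 and Otud6b (0.90 to 0.83), Esrrb to E130218I03Rik, Micall1 and Fgf1 (0.83 to 0.79) and Esrrg to Pitpna, Kctd9 and Gpld1 (0.85 to 0.82).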

How the data were processed

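Cerebellar RNA of 20 mice in 5 conditions was sequenced by the authors, who trimmed the reads with cutadapt 1.10, removed ribosomal reads with bowtie (2.2.8), mapped the others to mm10 with STAR 2.5.3a and counted them on genes with HTSeq 0.6.1p1 (versions per the submitters' processing notes). The deposited counts are whole reads per gene for 55401 genes, to which the authors applied no normalization, and they were used as deposited. GENCODE release M21 gave symbols, positions and transcripts for 55141 of these genes, and 260 were left out. Groups were taken from the sample labels.

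Protein-coding genes were tested in R 4.3.3 with edgeR 4.0.16 (TMM, filterByExpr with minimum count 10 and minimum total 15, quasi-likelihood test without robust estimation), with 1 fit for the 14 late libraries, 1 for the 6 early libraries and 1 for the 7 untreated WT libraries. Benjamini-Hochberg adjustment ran over all genes tested in a comparison, and intervals are 95% intervals of the fit. The edgeR fit was tested on simulated data for some of the comparisons. DESeq2 1.42.0 was run as an alternative tool, with its Wald test without shrinkage. Mice of 1 condition differed by more than counting noise (chi-squared per degree of freedom 4.87 to 26.1 over 32 pairs), so no libraries were merged and the spread between mice sets the precision. CAG runs were searched on the sense strand of all annotated transcripts.

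All 9 genes are named in every comparison. Of other lists, counts are given with at most 2 called genes in each direction, all 5 genes listed as bound by RORα, and for each of the 9 the 3 genes of highest correlation, by rule. A few genes singled out beyond it (Atxn7, Gm27199, Pecam1 and the 8 genes of the added list) were chosen after their values were seen. The 9 genes and the lists were chosen with earlier results of these data known. Alternatives covered normalization, tool, filters, gene types, the samples in a fit, a replicate block, the fold limit, transcript length and leaving out each mouse. Leaving out both late libraries that stood apart was added after seeing the data. Another result is not reported here.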

Additional observations from a re-analysis of the deposited data

Results flagged for a closer look

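In 27 sets of values (9 genes in 3 late groups) the highest or lowest mouse was set against the others of its group with Dixon's test, which by chance picks out about 1 in 20 sets, and 2 stood out. Foxp2 was at 23.4 CPM in late WT mouse 1, against 11.7 to 12.3 CPM in the other WT mice, a gap of 0.954 of the group's range. Nrgn and Tcf7l2 were at 122 and 66.8 CPM in the same library and at 3.69 to 5.79 and 6.29 to 6.502 CPM in the other late WT libraries. Esrrg was at 90.9 CPM in AAV-shSCR-treated SCA7 mouse 4, against 99.1 to 101.9 CPM in the other mice of that group, a gap of 0.75 of the range. Without this mouse the log2 fold change of Esrrg against WT was −0.11 (edgeR adjusted p = 0.0819).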

How the results depend on the processing

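Without the fold limit, the calls among the 9 genes were 6 with AAV-shSCR against WT, 5 with AAV-shA4 against WT and 1 for 25w against 9w, in place of 2, 2 and 0. Leaving out 1 mouse moved the first from 2 to 3 and the second from 1 to 3 (1 without WT mouse 2). Each direction that turned in any setting had an edgeR or DESeq2 adjusted p of 0.553 or above there. Leaving out 1 mouse gave log2 fold changes of −0.347 to 0.0634 (AAV-shSCR against WT) and −0.185 to 0.325 (AAV-shA4 against WT) for Foxp2, −0.0465 to 0.00435 for Esrrg (AAV-shA4 against WT), and between the treatments −0.0108 to 0.0454 for Rora, −0.0163 to 0.0556 for Foxp4, −0.0572 to 0.00598 for Lhx1 and −0.0703 to 0.0165 for Ebf1. It gave Lhx1 −0.0201 to 0.0323 in the early comparison, and Foxp4 −0.0399 to 0.0101 and Lhx1 −0.0493 to 0.0069 for 25w against 9w. Leaving out both libraries that stood apart turned Foxp2 to 0.0634 with AAV-shSCR against WT, Esrrg to 0.00158 with AAV-shA4 against WT, and Lhx1 to 0.00598 and Ebf1 to 0.0165 between the treatments. Early Lhx1 turned to 0.00216 with DESeq2 size factors, 0.00214 with DESeq2, 0.00125 without a filter, 0.00171 over all genes and 0.000107 with all 20 libraries in 1 fit. Causes were not tested.

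Per kilobase of joined exons the WT levels were 31.0 for Rora, 23.2 for Foxp4, 20.1 for Lhx1, 17.5 for Esrrg, 7.51 for Ebf1, 2.99 for Esrrb, 2.32 for Ebf3 and 0.912 CPM per kb for Foxp2. The replicate numbers were not taken to pair the mice. The correlation of deviations was −0.226 to 0.491 (median 0.0127) between same-numbered late mice and −0.468 to 0.298 (median −0.00404) between the others. The highest, 0.491, was between AAV-shA4-treated SCA7 mouse 1 and WT mouse 1, the 2 libraries that stood apart. With a replicate block the calls were 2 (AAV-shSCR) and 3 (AAV-shA4) against WT, beside 3.79% and 3.28% of all genes, and the edgeR adjusted p was 0.051 for Esrrg (AAV-shSCR), 0.0556 for Rora (AAV-shA4) and 0.0847 for Ebf1 (25w against 9w). DESeq2 gave an adjusted p of 0.0367 for Rora at 25w against 9w. With all 20 libraries in 1 fit, the adjusted p of Esrrg with AAV-shSCR was 0.0583 and that of Ebf1 for 25w against 9w 0.0542. Of the single gene changes under other settings that kept all mice or left out both libraries, 352 kept direction and side of the threshold, 9 turned, 6 lost it and 2 gained it.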
